A study of Mus musculus with 8 samples.

Results

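The genes described here were 10 genes that mark liver sinusoidal endothelial cells: Stab1, Stab2, Lyve1, Fcgr2b, Clec4g, Kdr, Eng, Pecam1, Dnase1l3 and Oit3. They were taken by name as markers of this cell type from the 25239 gene symbols counted in each liver, at a time when earlier results of these data were known, and all 10 had enough reads to be tested, with between 49 and 1584 reads per gene and liver. Bulk RNA-Seq was performed on whole livers of 4 control and 4 Smo-KO mice. All 8 were male Smo tm2Amc/J mice, in which both copies of Smo carry loxP sites (Smo flox/flox), on a C57Bl6/J background, and all were fed the CDA-HFD, a choline-deficient, amino acid-defined diet with 60% of its energy from fat that induces steatohepatitis, for 6 weeks; their age is not given for this feeding experiment in the sources used here. One week before sacrifice, the control mice, labelled WT and Smo-Luc, received AAV8-TBG-luciferase, and the Smo-KO mice, labelled SMO KO and Smo-Cre, received AAV8-TBG-Cre recombinase. The TBG promoter is active in hepatocytes, so the vector was not aimed at the endothelial cells whose genes are described here. Between 8203299 and 9999732 reads per liver fell on genes.

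Sinusoidal endothelial cells line the capillaries of the liver, and pores in these cells let plasma reach the hepatocytes. They take up waste molecules from the blood through scavenger and lectin receptors, and their state depends on vascular endothelial growth factor and on bone morphogenetic proteins. In chronic liver injury they can lose their pores and receptors and come to resemble ordinary capillary endothelium, a change called capillarization. Smo is the membrane protein that passes the Hedgehog signal into the cell, and Hedgehog ligands can reach endothelial cells too.

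Smo was measured at 8.17, 8.49, 8.74 and 8.21 CPM (reads per 1000000 reads on genes, after scaling of library sizes) in control mice 1 to 4 and at 5.67, 3.93, 4.27 and 4.37 CPM in Smo-KO mice 1 to 4. Every Smo-KO liver was below every control liver, and Smo-KO mouse 1 had the highest value of the Smo-KO livers. The mean was 8.40 ± 0.270 CPM in control and 4.56 ± 0.765 CPM in Smo-KO livers (SD, n = 4 each), and the fitted difference was -0.88 on the log2 scale (SE 0.158; edgeR's quasi-likelihood test with Benjamini-Hochberg adjustment over 12977 genes, adjusted p = 0.0957). The exact permutation test on CPM gave its smallest possible two-sided value, p = 0.0286, which is 2 of the 70 assignments of mice to groups. The tissue matched its label, with the hepatocyte genes summing to 31500 ± 2660 CPM in control and 30700 ± 1050 CPM in Smo-KO livers, although Ass1, an abundant hepatocyte enzyme on that list, had 0 or 1 read in each liver. A gene listed at or near 0 in these files was therefore not read as absent.

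Promoter sequence was looked at because the members moved together from mouse to mouse, as described below. ETS transcription factors are known to act at endothelial genes, and their core word was searched as AGGAAG on either strand in the 250 bases before each gene's start, from RefSeq promoters of build GRCm38.p6. The table held promoters of 6 members, and 4 of them had the word (Stab1, Stab2, Clec4g and Eng), against 29.5% of all 32851 promoters of the same length. A GATA word (AGATAA, with T allowed at its first and G at its last base, either strand) was in 1 of the 6 and in 26.5% of all promoters, and a SOX word (ACAAAG, with T allowed at the fifth base, either strand) was in 2 of the 6 and in 25.2% of all. These are matches of letters and say nothing of binding, and their part in the shared movement of the members was not tested. The 150 bases just before the start are printed for 3 members whose start is the same in GENCODE M21 and whose window holds no annotated exon: Stab1, which behaved least like the others, and Clec4g and Eng, which had the highest levels per length. They are Stab1 (chr14:31168642-31168791, minus strand), Clec4g (chr8:3720652-3720801, minus strand) and Eng (chr2:32646445-32646594, plus strand), written 5′ to 3′ along the gene's strand with the ETS word, or its reverse complement, in capitals.
Stab1 promoter: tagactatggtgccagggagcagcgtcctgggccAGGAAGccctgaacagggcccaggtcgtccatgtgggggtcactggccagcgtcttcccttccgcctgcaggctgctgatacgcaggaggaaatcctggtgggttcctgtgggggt
Clec4g promoter: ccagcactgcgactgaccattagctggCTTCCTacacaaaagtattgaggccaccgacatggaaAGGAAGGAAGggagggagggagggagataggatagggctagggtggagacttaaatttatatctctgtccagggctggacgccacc
Eng promoter: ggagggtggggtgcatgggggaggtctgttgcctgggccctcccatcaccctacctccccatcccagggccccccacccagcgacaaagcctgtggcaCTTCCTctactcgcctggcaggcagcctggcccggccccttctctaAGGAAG
The Stab1 window holds 1 such word, the Clec4g window 3, of which 2 overlap by sharing bases, and the Eng window 2.

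No member passed the test across all genes. Of the 10, 8 had a lower and 2 a higher fitted level in Smo-KO livers, where 50.1% of all genes were lower, and 0 had an adjusted p under 0.05 in edgeR or in DESeq2. The background was 0% of the 12977 genes tested in edgeR and 1.29% in DESeq2. At an unadjusted p under 0.05, edgeR gave 2 members, Pecam1 and Dnase1l3, both lower and neither past adjustment, where 13.8% of all genes reached that level, 7.15% lower and 6.7% higher. DESeq2 gave 3, these and Stab1, which was higher, where 12.5% of all genes reached that level. The groups overlapped for all 10 members in CPM, while 7.37% of all genes had groups that did not overlap, 4.34% lower and 3.03% higher in Smo-KO. The median log2 fold change of the members was -0.26, beside -0.001 over all genes tested. In whole liver, fewer endothelial cells and less RNA per endothelial cell cannot be told apart.

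**Figure D1:**
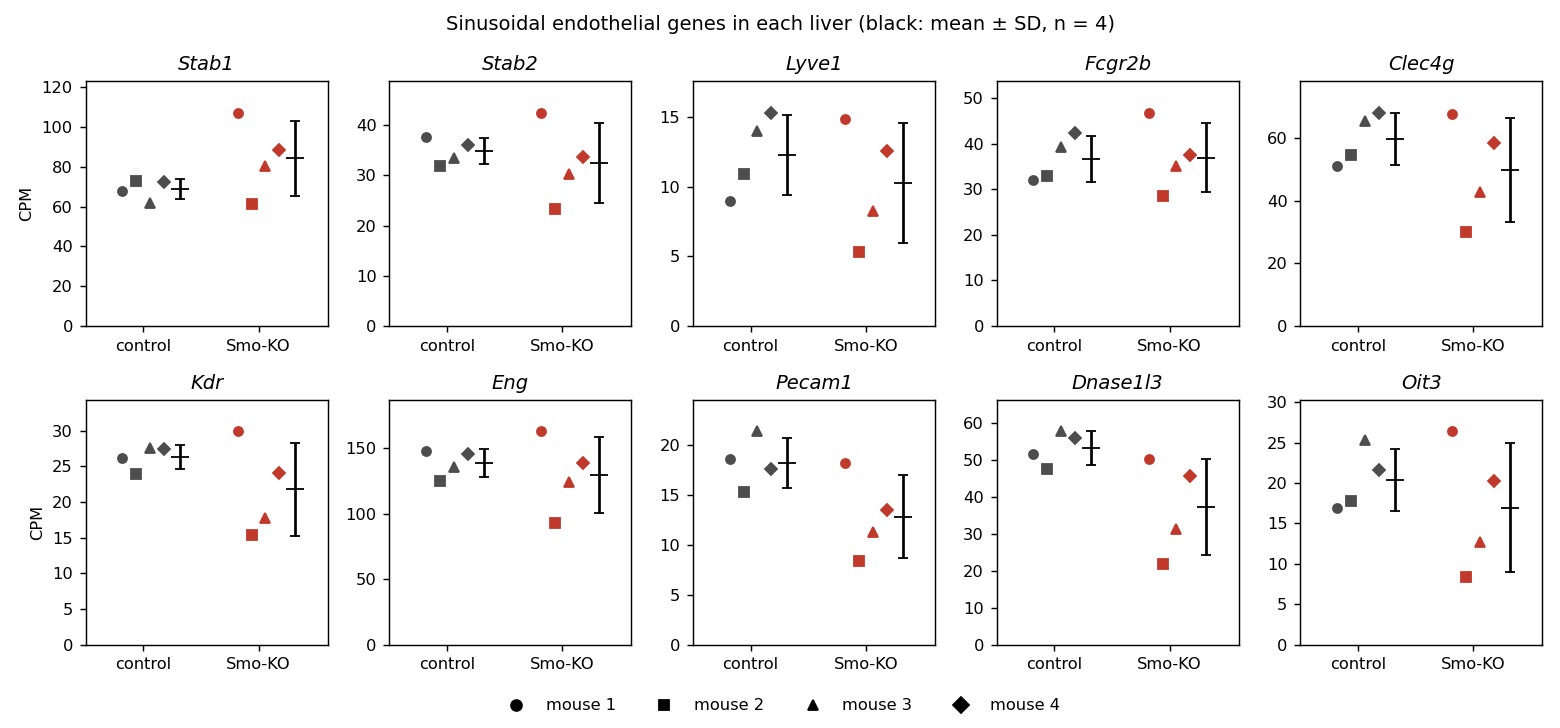
CPM of each of the 10 members (vertical axis, from 0) in the 4 control livers (grey) and the 4 Smo-KO livers (red), with a marker shape for the mouse number and the mean ± SD in black. In every panel Smo-KO mouse 1 is the highest and Smo-KO mouse 2 the lowest of the Smo-KO livers, and the groups overlap.

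The first group of members was the receptors that clear material from blood. Stab1 (chr14:31139013-31168641, GRCm38, minus strand), a large scavenger receptor that macrophages also make, was at 68.0, 72.9, 62.0 and 72.4 CPM in control mice 1 to 4 and at 107, 61.4, 80.2 and 88.5 CPM in Smo-KO mice 1 to 4. It was the member with the largest positive fold change: 3 Smo-KO livers were above the highest control liver and the remaining one, mouse 2, was below the lowest. The means were 68.8 ± 5.04 and 84.3 ± 18.9 CPM (log2 fold change 0.29, SE 0.141, edgeR adjusted p = 0.378). Its exons share 112 bases with Nt5dc2 on the other strand, and whether the counting used strand is not given in the sources used here. Its paralog Stab2 (chr10:86841198-87008025, minus strand), which clears hyaluronan and other ligands, was at 37.7, 31.9, 33.5 and 36.0 CPM in control and at 42.4, 23.3, 30.2 and 33.7 CPM in Smo-KO mice 1 to 4. The Smo-KO livers spanned the control range on both sides, and the log2 fold change was -0.10 (SE 0.150, edgeR adjusted p = 0.809).

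Lyve1 (chr7:110850607-110863239, minus strand) encodes a hyaluronan receptor and was the least counted member. It was at 8.96, 10.9, 14.0 and 15.3 CPM in control and at 14.9, 5.34, 8.29 and 12.6 CPM in Smo-KO mice 1 to 4. Smo-KO mice 2 and 3 lay below all controls and mice 1 and 4 within them (log2 fold change -0.26, SE 0.268, edgeR adjusted p = 0.714). Fcgr2b (chr1:170958617-170976547, minus strand), the inhibitory receptor for immunoglobulin G that removes immune complexes in sinusoids and is also made by B cells and macrophages, was at 32.1, 32.9, 39.3 and 42.4 CPM in control and at 46.8, 28.5, 35.2 and 37.5 CPM in Smo-KO mice 1 to 4. Its group means were almost level, at 36.7 ± 5.00 and 37.0 ± 7.58 CPM (log2 fold change 0.01, SE 0.145, edgeR adjusted p = 0.982). Fcgr2b shares similar sequence with its paralog Fcgr3, named here for that reason and at 33.3 and 40.8 CPM, so reads may have been split between them. Clec4g (chr8:3707064-3720651, minus strand), a C-type lectin also known as LSECtin, was at 51.0, 54.5, 65.5 and 68.0 CPM in control and at 67.8, 30.1, 42.7 and 58.3 CPM in Smo-KO mice 1 to 4. Smo-KO mice 2 and 3 were again below all controls, mice 1 and 4 were within their range, and the log2 fold change was -0.26 (SE 0.201, edgeR adjusted p = 0.588).

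The second group was receptors for growth factors and the junction protein. Kdr (chr5:75932827-75978458, minus strand), the main signalling receptor for vascular endothelial growth factor, was at 26.2, 24.0, 27.6 and 27.4 CPM in control and at 29.9, 15.4, 17.7 and 24.1 CPM in Smo-KO mice 1 to 4. The controls lay close together and the Smo-KO livers reached past them on both sides (log2 fold change -0.27, SE 0.172, edgeR adjusted p = 0.513). Eng (chr2:32646595-32682669, plus strand) encodes endoglin, the co-receptor for BMP9, and was at 148, 125, 136 and 146 CPM in control and at 163, 93.3, 124 and 139 CPM in Smo-KO mice 1 to 4. Its means of 138 ± 10.7 and 130 ± 29.3 CPM differed by less than the spread in Smo-KO livers (log2 fold change -0.09, SE 0.141, edgeR adjusted p = 0.814). Its exons share 61 bases with Fpgs on the other strand. Pecam1 (chr11:106654217-106750628, minus strand), the junction protein CD31 that endothelial cells of all vessels carry, was at 18.6, 15.3, 21.4 and 17.6 CPM in control and at 18.2, 8.40, 11.3 and 13.5 CPM in Smo-KO mice 1 to 4. Smo-KO mice 2, 3 and 4 were below every control, and mouse 1 lay among the controls. The mean in Smo-KO was 70.7% of that in control (log2 fold change -0.50, SE 0.196, edgeR adjusted p = 0.292; exact permutation test, two-sided p = 0.0857).

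The third group was a secreted enzyme and a protein with a zona pellucida domain. Dnase1l3 (chr14:7964533-7994573, minus strand), a secreted nuclease that breaks down DNA in chromatin and microparticles, was at 51.7, 47.6, 57.8 and 56.1 CPM in control and at 50.2, 21.9, 31.3 and 45.8 CPM in Smo-KO mice 1 to 4. All 4 Smo-KO livers were below the control mean, 3 of them below every control, and mouse 1 was inside the control range. The means were 53.3 ± 4.59 and 37.3 ± 13.1 CPM, the lowest Smo-KO mean relative to control among the 10 (log2 fold change -0.51, SE 0.201, edgeR adjusted p = 0.288; exact permutation test, two-sided p = 0.0571). Oit3 (chr10:59422958-59441778, minus strand), a zona pellucida domain protein, was at 16.9, 17.8, 25.3 and 21.6 CPM in control and at 26.4, 8.40, 12.7 and 20.3 CPM in Smo-KO mice 1 to 4. It had the widest spread in Smo-KO livers, where the highest liver was 3.14 times the lowest, and its log2 fold change was -0.27 (SE 0.271, edgeR adjusted p = 0.706).

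Levels of different genes were compared per kilobase of exon in control livers. Eng was the most abundant member at 38.0 ± 2.94 CPM per kilobase, Clec4g followed at 24.6 ± 3.39, and Dnase1l3 came next at 11.2 ± 0.968 (SD, n = 4). After them came Fcgr2b at 9.63, Stab1 at 8.61 and Oit3 at 7.51 CPM per kilobase. Kdr, Pecam1, Lyve1 and Stab2 lay between 4.22 and 4.44 CPM per kilobase. Neighbours in this order overlapped between livers, except Eng with Clec4g, Clec4g with Dnase1l3, and Oit3 with Kdr.

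The members varied together from mouse to mouse, and over a wider range in Smo-KO than in control livers. Within the Smo-KO group all 10 had the same order, mouse 1 highest, then mouse 4, mouse 3 and mouse 2, an order found in 5.81% of all genes tested. The coefficient of variation of CPM was larger in Smo-KO for all 10 members, with a median of 11.1% in control and 31.2% in Smo-KO livers. Over all genes tested it was larger in Smo-KO for 50.3%, and its median was 12.1% in both groups. Mice, not genes, are the replicates here, and the 10 members repeat the same 4 livers.

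**Figure D2:**
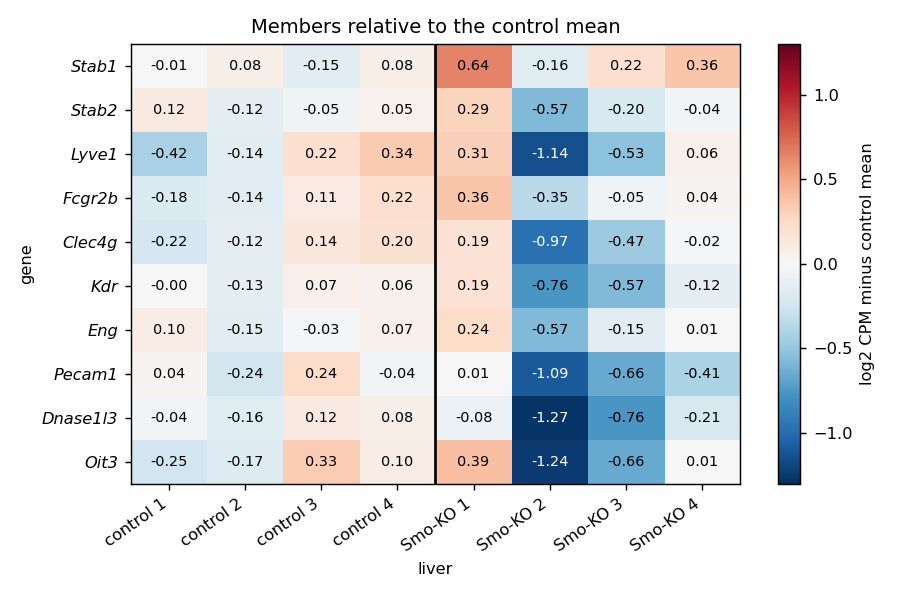
Log2 CPM of each member (rows) in each liver (columns) minus the mean of the 4 control livers, with red above and blue below that mean. Smo-KO mouse 2 is below the control mean for all 10 members, and Smo-KO mouse 1 is above it for 9.

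Summed over the 10 members, the control livers held 459, 432, 482 and 502 CPM and the Smo-KO livers 567, 296, 394 and 474 CPM. Smo-KO mouse 1 was above all controls, mice 2 and 3 below all of them, and mouse 4 inside their range. As a share of the control mean, Smo-KO mouse 1 held 121%, mouse 2 held 63.1%, mouse 3 held 84.0% and mouse 4 held 101%. The group means were 469 ± 30.1 and 433 ± 115 CPM (SD, n = 4 each).

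The fold changes depended on these livers. Without Smo-KO mouse 1 the median log2 fold change of the members became -0.45, 9 of 10 were lower, and 5 had an unadjusted p under 0.05 in edgeR (Clec4g, Kdr, Pecam1, Dnase1l3 and Oit3, all lower, where 17.8% of all genes reached that level and 8.88% were lower). The smallest adjusted p was then 0.0893, for Pecam1 at a log2 fold change of -0.71, so that no member passed the adjusted threshold. Without Smo-KO mouse 2 the median became -0.04, 6 of 10 were lower, and the 1 member with an unadjusted p under 0.05, a level that 13.1% of all genes reached in that fit, was Stab1, higher by 0.42 on the log2 scale (edgeR adjusted p = 0.242). Smo-KO mouse 1 was also the liver with the highest Smo level in its group, and the part of this in its values was not tested. Smo was measured in whole liver and the vector was aimed at hepatocytes, so the cells that held the remaining Smo cannot be told apart. Without control mouse 3 or without Smo-KO mouse 3, 0 members had an unadjusted p under 0.05, where 10.6% and 9.5% of all genes reached that level.

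**Figure D3:**
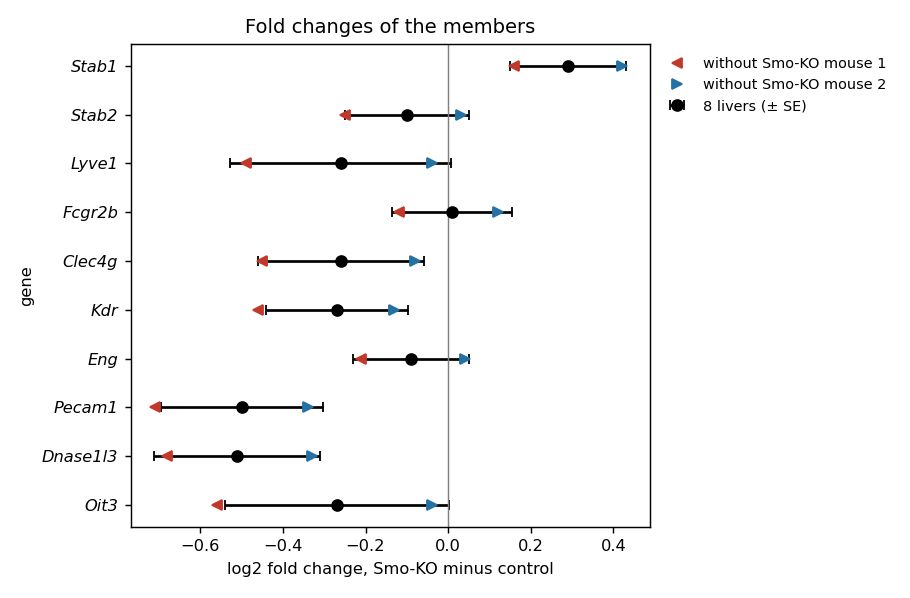
Log2 fold change of each member, Smo-KO minus control, over all 8 livers (black, ± SE) and after leaving out Smo-KO mouse 1 (red) or mouse 2 (blue). For every member the red point lies to the left and the blue point to the right of the value over 8 livers, and Stab1 stays above 0 in all of them.

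Because the members shared a common movement, ratios between 2 members within a liver were looked at, after the single values had been seen, and are given as a description without a test. Of the 45 ratios, which share genes and are not independent, 16 had groups that did not overlap (35.6%), beside 7.37% of the 84142878 ratios between any 2 tested genes that had a read in every liver. These shares are not like for like. Pairs of members correlated within groups at a median of 0.91, and spread that 2 genes share drops out of their ratio. Of the 9 ratios that involve Stab1, 6 did not overlap, with Stab1 relatively higher in Smo-KO in all 6, and of the 9 that involve Fcgr2b, 4 did not overlap, all with Fcgr2b relatively higher. For Dnase1l3 it was 6 of 9 and for Pecam1 4 of 9, all relatively lower in Smo-KO, and for Lyve1 and Oit3 it was 0.

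The ratio of Stab1 to Stab2, the paralogous receptors, was 1.81, 2.29, 1.85 and 2.01 in control and 2.52, 2.63, 2.65 and 2.63 in Smo-KO mice 1 to 4. All Smo-KO livers were above all controls and nearly level with each other, although both genes varied widely among them. The ratio of Stab1 to Dnase1l3 was 1.32, 1.53, 1.07 and 1.29 in control and 2.13, 2.80, 2.56 and 1.93 in Smo-KO mice 1 to 4, again without overlap. The ratio of Stab1 to Eng was 0.459, 0.585, 0.457 and 0.498 in control and 0.655, 0.658, 0.646 and 0.635 in Smo-KO mice 1 to 4. Here too the Smo-KO livers lay in a narrow band above the controls. The ratio of Eng to Pecam1 was 7.96, 8.14, 6.35 and 8.26 in control and 8.95, 11.1, 10.9 and 10.3 in Smo-KO mice 1 to 4. For Fcgr2b to Clec4g it was 0.629, 0.604, 0.599 and 0.624 in control and 0.690, 0.946, 0.826 and 0.644 in Smo-KO mice 1 to 4. The groups were separated in both, by a small gap in the latter. By contrast, Stab2 and Eng kept nearly one proportion in all 8 livers, with a ratio between 0.247 and 0.256 in control and between 0.242 and 0.259 in Smo-KO livers.

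**Figure D4:**
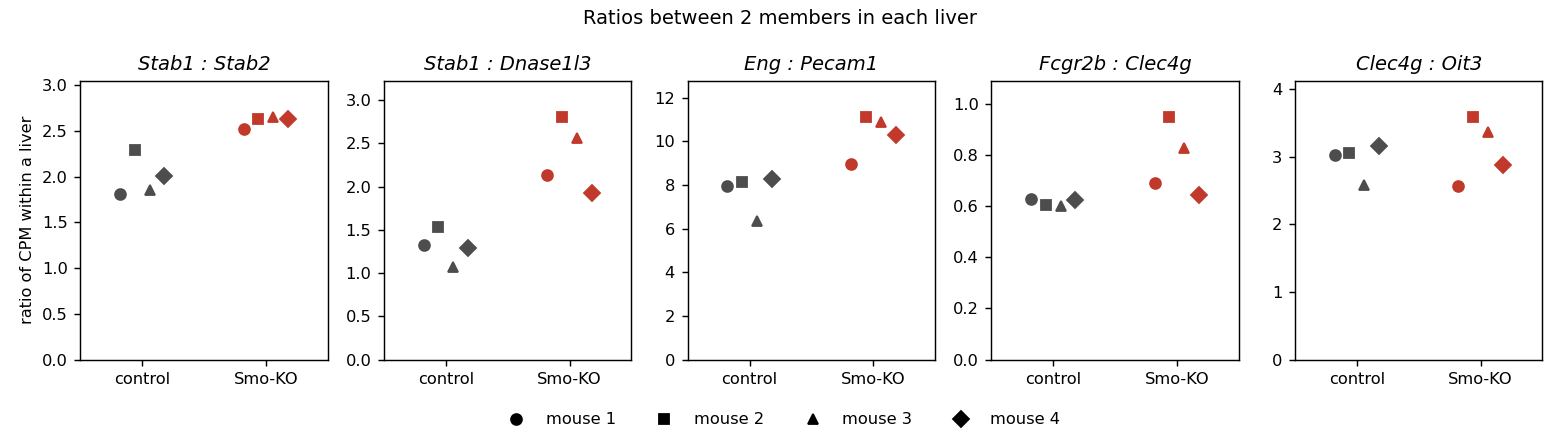
Ratio of CPM between 2 members within each liver (vertical axes from 0), control in grey and Smo-KO in red, with a marker shape for the mouse number. The 4 ratios on the left have groups that do not overlap, and Clec4g to Oit3 on the right has groups that overlap (2.58 to 3.15 in control, 2.57 to 3.58 in Smo-KO).

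Macrophages and B cells also make some members. The 13 macrophage genes, of which C1qa was the most abundant per length and none was at 0, summed to 2320, 2220, 2960 and 2680 CPM in control and to 3090, 2230, 2610 and 2600 CPM in Smo-KO mice 1 to 4. Their median log2 fold change was 0.09, and the 1 with an unadjusted p under 0.05 (13.8% of all genes) was Trem2, a receptor of lipid-associated macrophages, at 33.6 ± 2.94 CPM in control and 56.5 ± 9.70 CPM in Smo-KO livers (log2 fold change 0.75, SE 0.126, adjusted p = 0.0957 in edgeR and 0.000169 in DESeq2). Every Smo-KO liver was above every control for Trem2. Gpnmb, at 157 ± 10.9 and 175 ± 22.3 CPM, and C1qa, at 321 ± 29.6 and 357 ± 34.1 CPM, had the next smallest p. The members' order of mice held for 5 of the 13 macrophage genes (5.81% of all genes), and 8 of the 13 were highest in mouse 1 and lowest in mouse 2 of the Smo-KO livers (9.93% of all genes). The median correlation of the 13 with the members over the 8 livers was 0.49, and the highest, chosen after their values were seen, were Timd4 at 0.89, Csf1r at 0.82 and Cd5l at 0.81. The 4 B cell genes summed to 8.77 ± 0.952 and 8.97 ± 1.78 CPM. The part of these cells in the members' values and in the ratios of Stab1 and Fcgr2b was not tested.

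The other sinusoidal and the general endothelial genes mostly showed the same order of mice, and none had an adjusted p under 0.05 in edgeR or DESeq2. Among 10 other sinusoidal genes, 8 were lower and 2 higher (50.1% of all genes were lower), with a median log2 fold change of -0.22. The 1 with an unadjusted p under 0.05, a level that 13.8% of all genes reached, was Gata4, a transcription factor that maintains sinusoidal identity, at 21.3 ± 1.57 and 17.2 ± 2.85 CPM (log2 fold change -0.30, edgeR adjusted p = 0.323). Bmp2, at 17.4 ± 0.70 and 13.6 ± 4.35 CPM, and Flt4, a receptor for vascular endothelial growth factor C, at 22.6 ± 0.960 and 17.7 ± 6.40 CPM, had the next smallest p. Ehd3, the most abundant of this list per length, was at 53.3 ± 9.78 and 45.8 ± 10.9 CPM. The order of mice seen in the members held for 6 of these 10 genes. Their median log2 fold change was -0.34 without Smo-KO mouse 1 and -0.13 without Smo-KO mouse 2.

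Among 24 genes of endothelium in general, 22 could be tested (Cyyr1 and Aplnr could not), 15 were lower and 7 higher, and the median log2 fold change was -0.14. The 1 with an unadjusted p under 0.05 (13.8% of all genes) was Nos3, the endothelial nitric oxide synthase, at 6.58 ± 1.65 and 4.28 ± 0.913 CPM (log2 fold change -0.61, SE 0.218, edgeR adjusted p = 0.253). The angiopoietin family receptor Tie1 was at 16.2 ± 1.12 and 13.3 ± 2.51 CPM, and Cdh5, the cadherin of endothelial junctions, at 31.8 ± 3.99 and 24.7 ± 8.95 CPM. Egfl7, the most abundant of the list per length, was at 43.6 ± 6.78 and 47.0 ± 16.2 CPM. The order of mice held for 16 of the 22. The median log2 fold change of this list was -0.26 without Smo-KO mouse 1 and -0.03 without Smo-KO mouse 2.

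**Figure D5:**
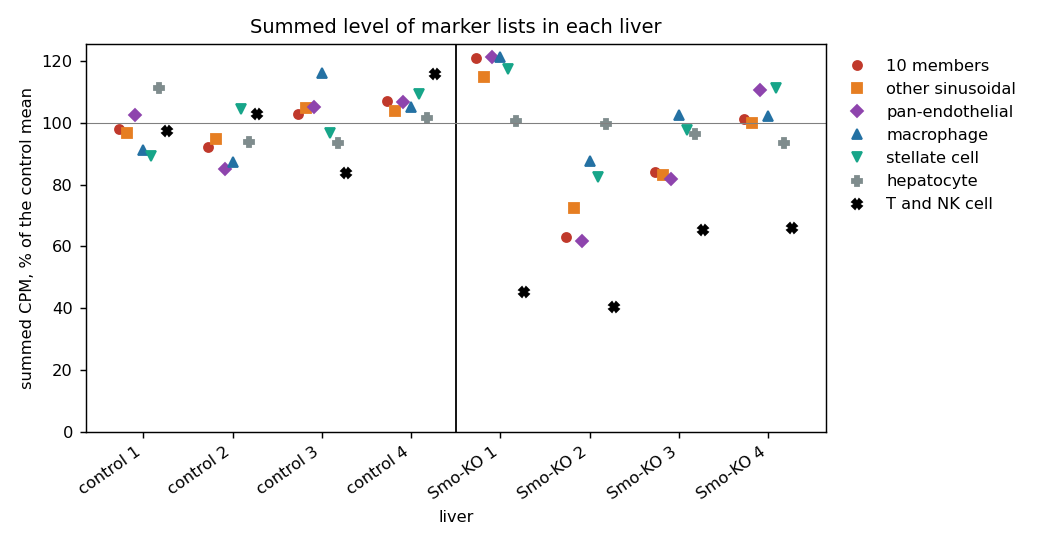
Summed CPM of 7 gene lists in each liver as a percentage of that list's control mean (vertical axis from 0), with a marker for each list. The members and the other endothelial lists spread widely over the 4 Smo-KO livers, the hepatocyte list has groups that overlap, and the T and NK cell list is lower in all 4 Smo-KO livers than in any control liver.

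None of the genes of continuous or capillarized endothelium passed the adjusted threshold. Of 11, 8 could be tested (Edn1, Apln and Esm1 could not), 5 lower and 3 higher (50.1% of all genes were lower), with a median log2 fold change of -0.15. Col4a2, a basement membrane collagen, was at 82.8 ± 5.23 and 64.5 ± 9.84 CPM (log2 fold change -0.36, SE 0.110, edgeR adjusted p = 0.205; exact permutation test, two-sided p = 0.0571), and its partner chain Col4a1 at 163 ± 17.4 and 145 ± 13.2 CPM. Plvap, a protein of the diaphragms of endothelial pores, was at 142 ± 13.8 and 112 ± 32.5 CPM. The 3 with a higher fitted level, named after their values were seen, were the fatty acid carrier Fabp4 at 10.3 ± 2.27 and 12.7 ± 3.22 CPM, the clotting protein Vwf at 6.97 ± 0.962 and 7.84 ± 2.81 CPM, and the surface protein Cd34, at 7.95 to 12.7 CPM in control and 9.39 to 11.5 CPM in Smo-KO livers. All 6 of these genes had groups that overlapped.

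On the list of ligands that endothelial cells send to their neighbours, 10 of 11 genes were tested (Jag2 could not be). Their correlation with the members ran from -0.64 to 0.97, with a median of 0.69, and which liver cells made them was not tested. The median log2 fold change was -0.17, and 2 of them were lower at an unadjusted p under 0.05 in edgeR (7.15% of all genes were). These were Hgf, the hepatocyte growth factor, at 10.1 ± 1.87 and 7.69 ± 0.797 CPM, and Bmp6, the signal that sets hepcidin in hepatocytes, at 6.42 ± 1.14 and 4.61 ± 1.16 CPM (edgeR adjusted p = 0.304 and 0.336). Pdgfb, a signal to stellate cells and pericytes and the most abundant ligand per length over all 8 livers, though not in control livers alone, where Bmp2 was higher per length, was at 14.7 ± 1.45 and 15.2 ± 2.62 CPM. Of the 6 pericentral genes 0 had an unadjusted p under 0.05 in edgeR, a level that 13.8% of all genes reached in either direction. Among the 6 were the Wnt signals of central vein endothelium, Wnt2, at 3.94 ± 0.958 and 3.45 ± 1.16 CPM, and Wnt9b. Wnt9b had 0 reads in Smo-KO mouse 2 and between 8 and 15 reads in the others. A count of 0 in that library allows up to 0.327 CPM. Rspo3, which strengthens Wnt signals, was at 10.2 ± 2.22 and 9.18 ± 2.61 CPM. The 5 periportal genes likewise had 0 with an unadjusted p under 0.05 (13.8% of all genes) and a median log2 fold change of -0.03. The smallest p among them were those of the scavenger receptor Msr1, the most abundant per length, at 85.4 ± 15.1 and 99.9 ± 8.68 CPM, of Adgrg6, at 1.40 ± 0.527 and 1.85 ± 0.358 CPM, and of Ltbp4, at 34.2 ± 5.77 and 30.0 ± 6.33 CPM.

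In the pathway of vascular endothelial growth factor and angiopoietin, 12 of 13 genes were tested (Pgf could not be), 5 were lower and 7 higher, and the co-receptors Nrp1 and Nrp2 had fitted differences of opposite sign that did not pass the adjusted threshold. Nrp1 was at 105, 79.2, 85.7 and 85.8 CPM in control and at 97.7, 106, 158 and 117 CPM in Smo-KO mice 1 to 4 (log2 fold change 0.43, SE 0.142, edgeR adjusted p = 0.239; exact permutation test, two-sided p = 0.0571). Nrp2 was at 19.1, 20.2, 21.2 and 16.9 CPM in control and at 18.0, 13.0, 12.9 and 13.0 CPM in Smo-KO mice 1 to 4 (log2 fold change -0.44, SE 0.135, edgeR adjusted p = 0.208; exact permutation test, two-sided p = 0.0571). For both genes 3 Smo-KO livers lay beyond all controls and mouse 1 lay within the control range.

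In the endoglin and BMP9 pathway, 14 of 15 genes were tested (Bmp10 could not be), 9 were lower and 5 higher, and the median log2 fold change was -0.04. Smad9, a signal transducer of bone morphogenetic proteins, was at 9.76 ± 2.02 and 14.8 ± 2.7 CPM (log2 fold change 0.60, SE 0.175, edgeR adjusted p = 0.186; exact permutation test, two-sided p = 0.0571). Smad6, an inhibitor of the same signal, was at 22.6 ± 1.24 and 19.4 ± 3.88 CPM, and Tgfbr1 at 58.7 ± 9.30 and 66.7 ± 5.84 CPM. Id3, a target gene of these signals and the most abundant of the list per length, was at 188 ± 20.3 and 176 ± 6.22 CPM. Gdf2, which encodes BMP9 itself, was at 36.4 ± 5.20 and 36.5 ± 6.62 CPM.

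Across the 8 livers, 4 of the 10 genes most like the members were on the endothelial lists. By Pearson's r of log2 CPM with the mean of the standardized members, the highest 10 outside the list were Rasip1 (0.981), Robo4 (0.978), Icam2 (0.977), Cfp (0.976), Hspg2 (0.976), Sod3 (0.971), Cd300lg (0.968), Dll4 (0.966), Hic1 (0.963) and Tnik (0.963). Rasip1, a regulator of vessel lumen, Robo4, a guidance receptor of endothelium, and Icam2, an adhesion molecule, belong to the general endothelial list, and Dll4 is a Notch ligand. These are descriptions over 8 livers that share 4 Smo-KO livers of wide spread. Among the members, the 45 pairwise correlations within groups had a median of 0.91 and ran from 0.76, for Stab1 with Pecam1, to 0.99, while those of the members with all other genes had a median of 0.00. Clec4g at 0.977 and Oit3 at 0.976 followed the members' mean most closely over all 8 livers, and Stab1 at 0.542 least, or 0.891 once group means were removed. Each member is itself part of that mean, which raises its r, so these values do not compare with those of genes outside the list.

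Other cell types were read beside the members. The 9 stellate cell genes summed to 599, 700, 649 and 732 CPM in control and to 786, 552, 654 and 746 CPM in Smo-KO mice 1 to 4, also highest in mouse 1 and lowest in mouse 2, and their median correlation with the members was 0.68. Of the 9, 4 were lower and 5 higher (50.1% of all genes were lower), 0 had an unadjusted p under 0.05 (13.8% of all genes), and their median log2 fold change was 0.02. The smallest p were those of Reln, at 77.1 ± 10.7 and 86.4 ± 5.23 CPM, Colec10, with a log2 fold change of -0.37 (SE 0.239), and Pdgfrb, at 35.9 ± 2.41 and 32.7 ± 3.85 CPM, and Dcn was the most abundant per length, at 292 ± 32.0 and 305 ± 44.9 CPM. The 8 hepatocyte genes tested had a median correlation of 0.17 with the members and held the order of mice in 0 cases. Of the lymphatic list, whose genes can be mistaken for sinusoidal ones because both endothelia make Lyve1, Ccl21a was at 0 in all livers, Pdpn and Mmrn1 were too low to test, and Prox1, which hepatocytes also make, was at 105 ± 16.7 and 105 ± 19.6 CPM. The T and NK cell genes summed to 54.4, 57.4, 46.9 and 64.8 CPM in control and to 25.2, 22.5, 36.5 and 36.9 CPM in Smo-KO mice 1 to 4, without overlap, and did not follow the members' order of mice in any of the 6 genes tested. The part of stellate, lymphatic, T and NK cells in the members' values was not tested.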

How the data were processed

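RNA from 8 livers (4 control, 4 Smo-KO) was extracted with Trizol and made into libraries with the NEB Next Ultra RNA kit for NovaSeq sequencing. The authors deposited raw read counts per gene symbol, 1 list per liver, in the form that htseq-count writes. The submitters' processing notes name fastp, STAR 2.7.5, featureCounts 2.0.1 and GRCm38 without their roles. The annotation and the strand setting are not given in the sources used here. Reads on no feature (7.56% to 9.68%) and on more than 1 gene (2.45% to 2.61%) entered neither library sizes nor tests. Per-liver totals of 8203299 to 9999732 reads limit precision. Molecular identifiers are not given, so floors cover counting error only.

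In R 4.3.3, edgeR 4.0.16 was run with filterByExpr, TMM scaling and the quasi-likelihood F test on genotype, with Benjamini-Hochberg adjustment over 12977 genes. Standard errors are those implied by the F statistic. CPM were computed on TMM-scaled library sizes, with 2 counts added as a prior for log2 CPM. Exact permutation tests of CPM were two-sided. Alternatives were DESeq2 1.42.0, other scalings and filters, the replicate number as a block, and each mouse left out; the procedure was tested on simulated data. Nothing says how the livers' cages or litters were shared, and p-values set the difference between groups against the spread between these mice only. No pair of libraries of 1 group was a copy: a chi-square of their counts was between 8.14 and 18.4 per degree of freedom. Gene positions and exon lengths (the union of exons of protein-coding transcripts) were taken from GENCODE M21 for GRCm38, the build the submitters name, and figures were drawn with matplotlib 3.10.9.

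The 10 members and the gene lists were chosen with earlier results of these data known. The genes named were all members, Smo, the 3 genes with the smallest p and the most abundant gene per length, over all 8 livers, of each list, and the 10 genes most correlated with the members; Nt5dc2, Fpgs and Fcgr3 were named for their overlap or similarity, Gdf2 for its role, Fabp4, Vwf, Cd34, Timd4, Csf1r, Cd5l and Cd3e after their values were seen, and genes that could not be tested or were at 0 for that reason.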

Additional observations from a re-analysis of the deposited data

Results flagged for a closer look

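One sum stood far from the rest of its group: the summed level of the 4 B cell genes was 7.34 CPM in control mouse 2, against 9.19 to 9.30 CPM in the other control livers. Of the 60 groups of values examined, 1 was this far out, where chance gives about 1 in 20, or 3.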

How the results depend on the processing

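The count of members with an adjusted p under 0.05 was 0 under all 6 other settings and all 8 fits that left out 1 mouse. Over all genes the count was 0 in edgeR, 167 with DESeq2, 61 with no filter and 8 with the replicate block, and ran from 0 to 78 when 1 mouse was left out (78 without Smo-KO mouse 1, 5 without control mouse 1). Over the other gene lists it was 0, then 5 with DESeq2 (Trem2, Cd3e, Cd8a, Nkg7 and Il2rb), 2 with no filter, 1 with the replicate block, and from 0 to 1 when 1 mouse was left out (1 without Smo-KO mouse 1, Trem2, log2 fold change 0.86, edgeR adjusted p = 0.02). The cause of these differences was not tested.

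The count of members with an unadjusted p under 0.05 ran from 0 to 5 when 1 mouse was left out: 5 without Smo-KO mouse 1 (17.8% of all genes), 1 without Smo-KO mouse 2 (13.1%), and 0 without control mouse 3 (10.6%) or Smo-KO mouse 3 (9.5%). Log2 fold changes near 0 changed sign: Fcgr2b ran from -0.12 to 0.12, Stab2 from -0.25 to 0.03 and Eng from -0.21 to 0.04, with the lowest value without Smo-KO mouse 1 and the highest without Smo-KO mouse 2. The other 7 members kept their direction in all settings.

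With the replicate number as a block, the members' median log2 fold change was -0.30 and the lowest adjusted p 0.162, for Dnase1l3. The deviations of same-numbered mice correlated at 0.104, 0.187, 0.061 and 0.113, and those of differently numbered mice ran from -0.205 to 0.157. Whether the numbers pair the mice cannot be settled from these values, and the main fit did not use them. Of the 8 mice, 5 correlated best with the mouse of their own number, and control mouse 1, Smo-KO mouse 3 and Smo-KO mouse 4 did not. With 49 reads in the liver where Lyve1 was lowest, depth limits the low members most. Reads shared between overlapping or similar genes, and between cell types, cannot be told apart in these counts.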

Other observations

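Genes of other cell types were also summed. The 4 dendritic cell genes tested had a median log2 fold change of 0.07 and the list summed to 48.1 ± 7.09 CPM in control and 51.6 ± 7.66 CPM in Smo-KO livers, with the smallest p for Xcr1, Siglech and Itgax, the last the most abundant per length. The neutrophil list summed to 22.5 ± 5.64 and 23.9 ± 3.11 CPM (smallest p for Csf3r, S100a9 and S100a8) and the cholangiocyte list, led by Spp1, to 148 ± 41.9 and 177 ± 45.5 CPM (smallest p for Epcam, Spp1 and Sox9). In these 3 lists, and among the 4 B cell genes (smallest p for Cd79b, Ms4a1 and Cd79a), 0 genes had an unadjusted p under 0.05 in edgeR. All 6 T and NK cell genes tested were lower at that level, where 7.15% of all genes were (median log2 fold change -0.85), led by Il2rb, the beta chain of the interleukin 2 receptor, at 10.5 ± 2.99 and 4.43 ± 1.04 CPM (edgeR adjusted p = 0.0957), Cd8a at 9.87 ± 0.756 and 5.80 ± 1.09 CPM (edgeR adjusted p = 0.116), and Nkg7, the most abundant per length, at 14.5 ± 3.09 and 7.59 ± 2.44 CPM (edgeR adjusted p = 0.140). Among the hepatocyte genes, 6 of 8 tested were lower and 2 higher, and 1 was lower at that level, Cps1 of the urea cycle, at 919 ± 50.6 and 733 ± 94.0 CPM (edgeR adjusted p = 0.218). Tat, which breaks down tyrosine, was at 981 ± 243 and 637 ± 303 CPM, Cyp2e1 at 3630 ± 701 and 4280 ± 275 CPM, and Alb, the most abundant per length, at 16600 ± 973 and 15300 ± 897 CPM.

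Of the red blood cell list, Hba-a1, Hba-a2, Hbb-bs and Hbb-bt were listed at 0 in all 8 livers, while Alas2 was at 111 ± 16.7 and 107 ± 16.6 CPM, so blood in the livers could not be read from the globin genes. Ass1 and the lymphatic gene Ccl21a were likewise at or near 0, and how the counting treated these genes was not tested. The 4 skeletal muscle genes, of which Acta1 was the most abundant per length, were too low to test and summed to 1.36 ± 1.08 and 0.323 ± 0.168 CPM.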
